A study of Mus musculus with 6 samples.

Results

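The genes described here encode the V-ATPase, the proton pump of lysosomes and related organelles, and the protein machinery that brings the growth kinase complex mTORC1 to the lysosome surface. They were chosen by symbol from the table of B16F10 cells, with pseudogene symbols left out. The rule took 46 of the 27179 genes in the table, of which 25 belong to the pump and 21 to the mTORC1 part. B16F10 is an established mouse melanoma line, labelled as wild type and as skin. RNA was sequenced from 3 cultures given 0.01% olive oil (OLO) and from 3 given 0.01% ozonated olive oil (OZO), each for 6 h in serum-containing medium. All cultures therefore received oil, and no untreated cells were among the 6 libraries.

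For each gene, 1 number was analysed, the authors' mean over the 6 libraries of the log2 CPM, the read count of a gene scaled to a common library size. The other values in the table are the authors' own comparison of OZO with OLO and were not used here. All levels below therefore hold for both treatments together, carry no SD, and cannot show whether a gene rose or fell with OZO. No value of a single library entered the work. A CPM value is the geometric mean over the libraries, since the mean was formed on the log2 scale. Longer transcripts give more reads, so genes were compared with each other as CPM per kb of exonic bases (GENCODE release M21). From the value shared by the 6025 genes without reads, libraries held 19641946 reads counted for genes in the geometric mean. A level of 1 CPM corresponds to 19.6 reads in a library of that size.

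The labelled cell type was checked against its markers. All 8 melanocyte lineage genes had reads, from 61.0 CPM for Mc1r to 7052 CPM for Dct, and the pigment enzyme gene Tyrp1 was at 5832 CPM. Of the 11 markers of leukocytes, epithelial cells, fibroblasts and endothelial cells, 6 were under 1 CPM and the highest, Cd68, was at 5.47 CPM. Krt5 had no reads.

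The V-ATPase is a rotary machine. Its V1 sector, in the cytosol, splits ATP, and its V0 sector, in the membrane, carries protons into the organelle. Lysosomes depend on this acid for their hydrolases, and pigment cells also use the pump to set the pH of melanosomes. When amino acids are plentiful, the pump and the Ragulator complex on the lysosome membrane load the Rag GTPases, which bind mTORC1, and the small GTPase RHEB then switches the kinase on. MITF, TFEB and TFE3, related transcription factors, bind the E-box CACGTG, and TCACGTGA is the core of the CLEAR motif found near many lysosomal genes.

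Promoter windows of 250 bases before to 50 bases after the RefSeq transcript start (GRCm38.p6, the mm10 assembly) were at hand for 38 of the 46 genes. The 8 without one were Lamtor3 and the pump genes Atp6v1b2, Atp6v1c1, Atp6v1g1, Atp6v1h, Atp6v0a2, Atp6v0d2 and Atp6ap1l. CACGTG, which reads the same on both strands, was present in the windows of 10 of these 38 genes (26.3%), 4 of 18 pump genes (22.2%) and 6 of 20 mTORC1 genes (30.0%). The share was 8.09% over all 27025 genes with a window, and 12.1% over the 9373 of them at or above 1 CPM in these cells. Exact binomial 95% intervals ran from 13.4% to 43.1% for all members, from 6.41% to 47.6% for the pump and from 11.9% to 54.3% for mTORC1. The interval of all members lies above both backgrounds, as does that of the 35 members at or above 1 CPM (28.6%, 14.6% to 46.3%). The pump interval holds both backgrounds. That of mTORC1 lies above the share over all genes and just holds that of genes at or above 1 CPM. Neither part taken alone is therefore set apart from the expressed genes. These intervals treat genes as independent draws, and the members were chosen with earlier results known. The longer TCACGTGA, which contains CACGTG and is also its own reverse complement, was present for 3 of the 18 pump genes, Atp6v1a, Atp6v0d1 and Atp6v0e (16.7%, interval 3.6% to 41.4%). The share was 1.12% over all genes with a window and 2.29% over those at or above 1 CPM. Both lie below the pump interval, which rests on 3 genes. TCACGTGA was present in 0 of the 20 mTORC1 genes. This allows a share of up to 16.8% (exact binomial 95% interval) and so is not set apart from these backgrounds. These shares describe letters in a window of fixed length and no binding was measured.

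The stretches below are shown because they hold the boxes of those members at or above 10 CPM whose box begins upstream of the RefSeq start and lies outside annotated exons but for a few bases. Each runs 5′ to 3′ on the strand of its gene, with CACGTG in capitals.
Atp6v1a (chr16:44139373-44139402, minus strand): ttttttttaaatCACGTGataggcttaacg
Atp6v0d1 (chr8:105566050-105566079, minus strand): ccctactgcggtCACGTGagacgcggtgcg
Atp6v0b (chr4:117887330-117887377, minus strand): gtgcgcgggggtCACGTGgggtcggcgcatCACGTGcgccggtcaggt
Rragc (chr4:123917309-123917338, plus strand): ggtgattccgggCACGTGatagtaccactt
Fnip1 (chr11:54438092-54438121, plus strand): tcagtttgctgcCACGTGatacggctcgtc
Lamtor1 (chr7:101905757-101905786, plus strand): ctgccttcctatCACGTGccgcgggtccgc
Lamtor4 (chr5:138255350-138255395, plus strand): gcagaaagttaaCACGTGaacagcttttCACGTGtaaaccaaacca

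Atp6v1a and Atp6v0d1 carry the 8-base form, with T before and A after the box, and Atp6v0b and Lamtor4 each carry a pair of boxes. Counted from the RefSeq start, the first base of the box lay at -131 in Atp6v1a, -3 in Atp6v0d1, -75 in Fnip1, -68 in Lamtor1 and -112 in Rragc. Atp6v0b had boxes at -36 and -18, and Lamtor4 at -120 and -104. The RefSeq start of Atp6v1a lies 446 bases inside the gene as GENCODE draws it, so this position depends on the annotation. The other genes with a box were Rheb (-96), where GENCODE places the box within an exon, Rragb, which had 3, and Atp6v0e, whose box began at 4, after the start. In B16F10 cells, the 4 pump genes with a box had a median level of 67.6 CPM per kb (range 12.6 to 104) and the 14 without one a median of 29.1 (range 0.0135 to 89.9). Among mTORC1 genes the medians were 18.6 for the 6 with a box (range 1.86 to 64.7) and 8.77 for the 14 without (range 1.62 to 50.6). The ranges overlapped in both parts, and the genes without a box included the 3 pump genes under 1 CPM that had a window. Pump genes without a window are in neither group. Among these are the leading genes Atp6v1b2 (71.3), Atp6v1g1 (52.8), Atp6v1c1 (52.5) and Atp6v1h (21.5). The others are Atp6v0a2 (13.5), Atp6ap1l (0.0565) and Atp6v0d2 (0.0266).

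**Figure D1:**
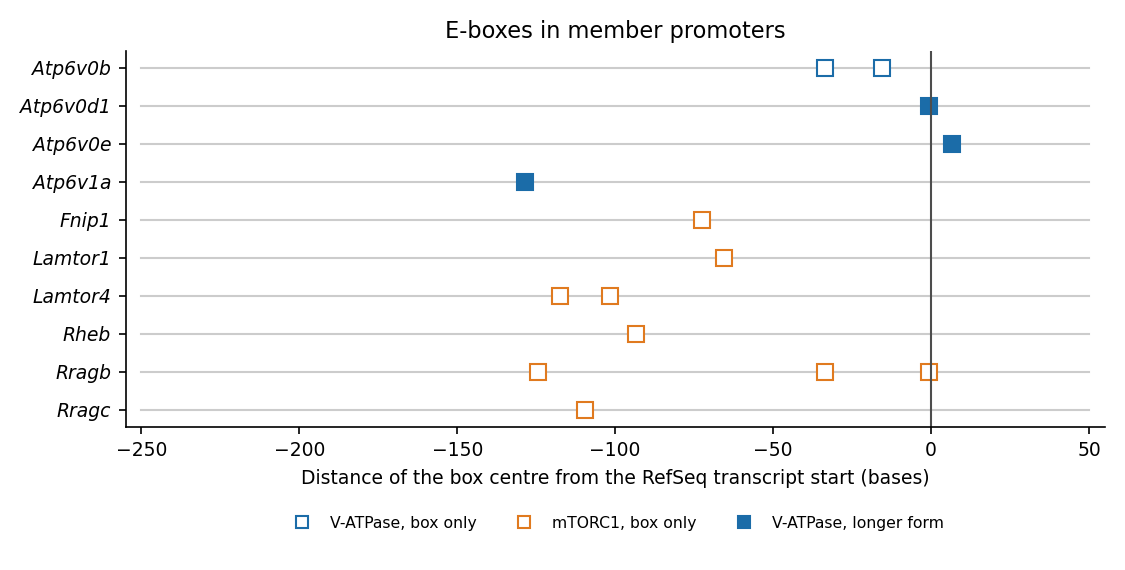
Positions of CACGTG in the promoter windows of the 10 members that hold it. The x axis is the distance of the box centre from the RefSeq transcript start in bases, each row is a gene, blue squares are V-ATPase genes, orange squares are mTORC1 genes, and filled squares mark the 3 boxes within TCACGTGA, all of them in pump genes.

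In B16F10 cells the pump had abundant RNA for a full set of subunit roles. Each of its 13 subunit roles had at least 1 gene at or above 59.9 CPM, and the leading genes of the 13 roles lay between 21.5 and 104 CPM per kb with a median of 53.7, a 4.85-fold range. By comparison, the median was 2.13 CPM per kb over the 17541 protein-coding genes with reads and 7.43 over the 11186 of them at or above 1 CPM. All 13 leading genes were above both values, but where a subunit has several genes the leading one was picked as the highest. The remaining 9 paralogs of these subunits had a median of 0.571 CPM per kb, and only 2 of them, Atp6v0a2 and Atp6v0e, exceeded either background median.

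In the V1 sector, Atp6v1a, which encodes the catalytic A subunit, lies on chromosome 16 from 44085402 to 44139705 and had the highest read level of all members, 493 CPM or 81.5 CPM per kb. Its partner in the catalytic ring, the B subunit gene Atp6v1b2, was at 71.3 CPM per kb. The peripheral stalk gene Atp6v1e1 was at 89.9 CPM per kb, the highest of the sector, although Atp6v1b2 exceeded it per kb of the longest transcript (134 against 126). Atp6v1f, a short gene for a subunit of the central stalk, was close to it at 84.7. The G stalk gene Atp6v1g1 stood at 52.8 CPM per kb and Atp6v1c1, whose C subunit helps hold the sectors together, at 52.5. The lowest of the leading V1 genes per kb of exonic bases were Atp6v1d at 28.8, which encodes the rotor shaft, and Atp6v1h at 21.5, whose product takes part in regulating the assembled pump. Per kb of coding sequence Atp6v1g1 (169) was below Atp6v1d (179). Atp6v1e1 exceeded Atp6v1h by 4.19-fold, or by 2.91-fold when the longest transcript gave the length.

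In the V0 sector, Atp6v0d1, the subunit that links the rotor to the membrane ring, was the highest of all 46 members per kb of exonic bases, but not with the longest transcript, where Atp6v1b2 was highest, or with the coding length, where Atp6v1e1 was. It lies on chromosome 8 from 105524465 to 105566047 and was at 104 CPM per kb, above 98.3% of the protein-coding genes with reads. The proteolipid genes Atp6v0b and Atp6v0c, which form the proton-carrying ring, were at 53.7 and 40.4 CPM per kb. The small e subunit came mainly from Atp6v0e2, at 62.8 CPM per kb. Atp6v0a1, for the large a subunit that forms the proton channel beside the ring, was at 29.4, the lowest of the leading V0 genes per kb. Without a length it was the highest of them, at 193 CPM. Among the accessory proteins, Atp6ap1 and Atp6ap2, both on chromosome X and both needed for pump assembly, were at 74.5 and 71.6 CPM per kb, an almost equal level. Atp6ap1l, a gene resembling Atp6ap1, was at 0.0723 CPM, below the 0.153 CPM that 3 reads in a library would give.

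**Figure D2:**
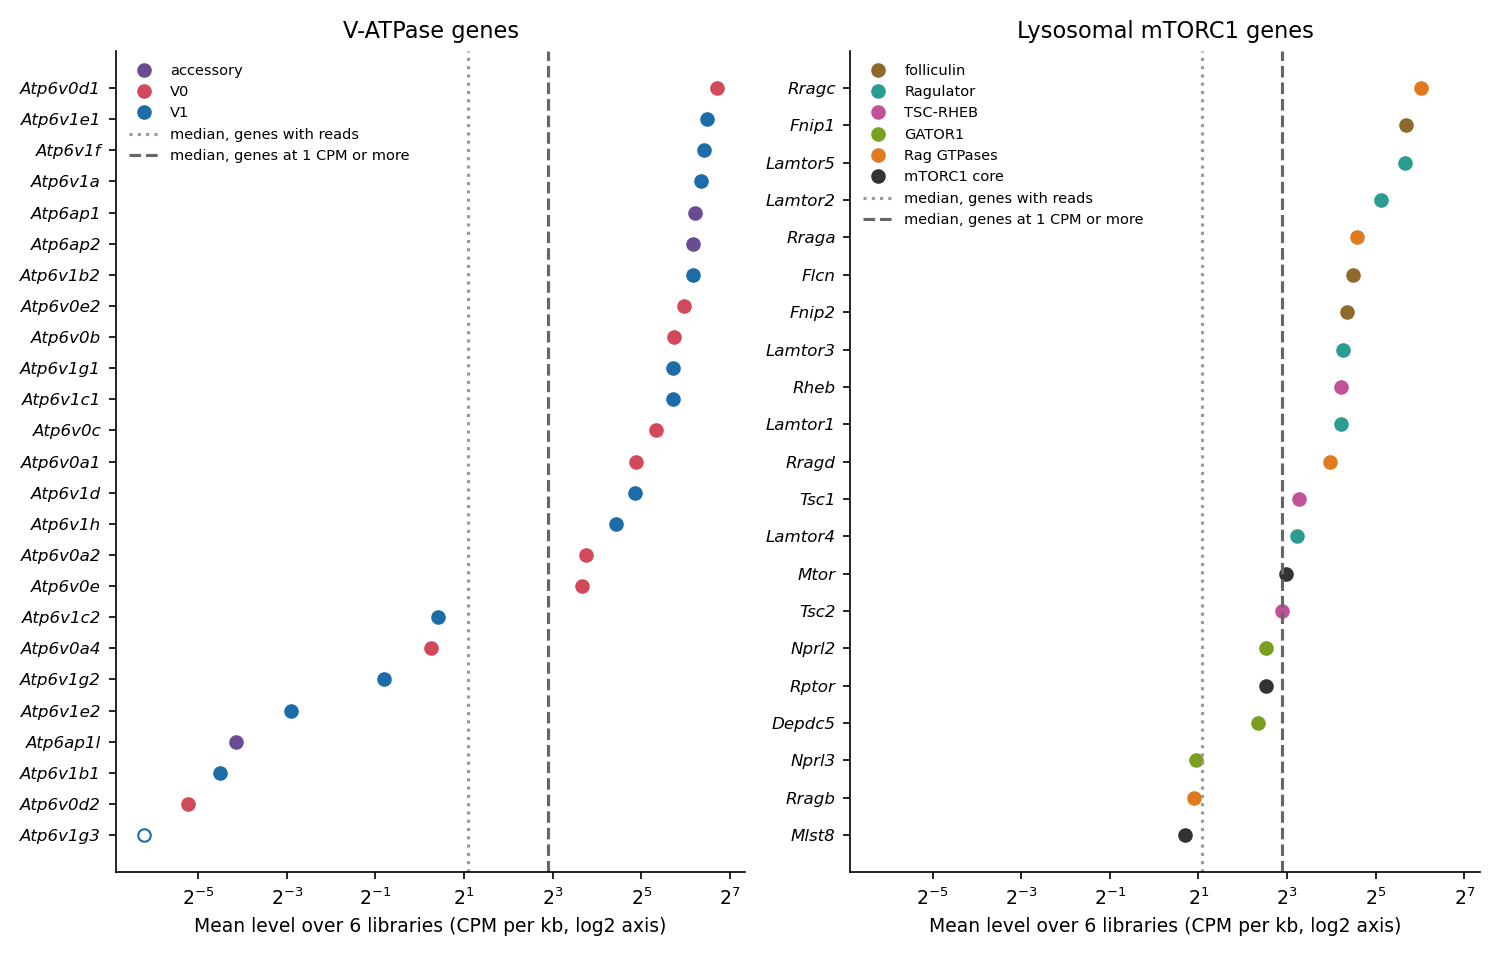
Mean level of each member over the 6 libraries, in CPM per kb of exonic bases on a log2 axis, with V-ATPase genes on the left and mTORC1 genes on the right. Points are coloured by complex, the open point marks Atp6v1g3, which had no reads, the dotted line is the median of protein-coding genes with reads (2.13) and the dashed line that of genes at or above 1 CPM (7.43). Pump genes split into 17 above the dashed line and 8 below the dotted one, whereas mTORC1 genes are spread from 1.62 to 64.7.

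Many pump subunits have several genes, some of them known for use in particular tissues. Of the 9 families compared, 7 of the pump and the RagA/B and RagC/D pairs, 5 drew over 95% of their summed level per kb from 1 gene. These were B (Atp6v1b2, 99.9%), C (Atp6v1c1, 97.5%), E (Atp6v1e1, 99.9%), G (Atp6v1g1, 98.9%) and d (Atp6v0d1, 99.97%). Their paralogs Atp6v1b1, known from acid-secreting cells of the kidney, and Atp6v1e2, known from testis, were at 0.193 and 0.174 CPM, or 3.79 and 3.42 reads per library with the 0.5 that voom adds, so that Atp6v1e2 is under 3 reads without it. Atp6v0d2, known from osteoclasts, was at 0.0723 CPM, also below the level of 3 reads. Atp6v1c2 reached 2.87 CPM and Atp6v1g2, a form typical of neurons, 1.43 CPM. Atp6v1g3 had no reads in any library. In a single library, a limit of 3 reads allows up to 0.153 CPM, and this limit covers counting error only. Over all 6 libraries together the limit is lower.

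The a, e, RagA/B and RagC/D families were more evenly divided. Among the 3 members that encode an a subunit, Atp6v0a1 held 66.7%, Atp6v0a2, whose product is known from the Golgi and endosomes, 30.6% and Atp6v0a4, known from kidney, 2.71%. The a3 subunit is encoded by Tcirg1, which the symbol rule does not take, and which was at 14.0 CPM per kb. With Tcirg1 counted, Atp6v0a1 held 50.6%, Tcirg1 24.1% and Atp6v0a2 23.2%. Atp6v0a2 was at 90.9 CPM or 13.5 CPM per kb and Atp6v0a4 at 5.95 CPM or 1.196 CPM per kb. Atp6v0e2 held 83.3% of the e subunit and Atp6v0e, at 46.6 CPM or 12.6 CPM per kb, 16.7%. For the Rag GTPases, Rraga held 92.8% against 7.22% for Rragb, and Rragc 80.5% against 19.5% for Rragd. The leading gene of all 9 families was the same with the longest transcript, with the coding length and without a correction for length.

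**Figure D3:**
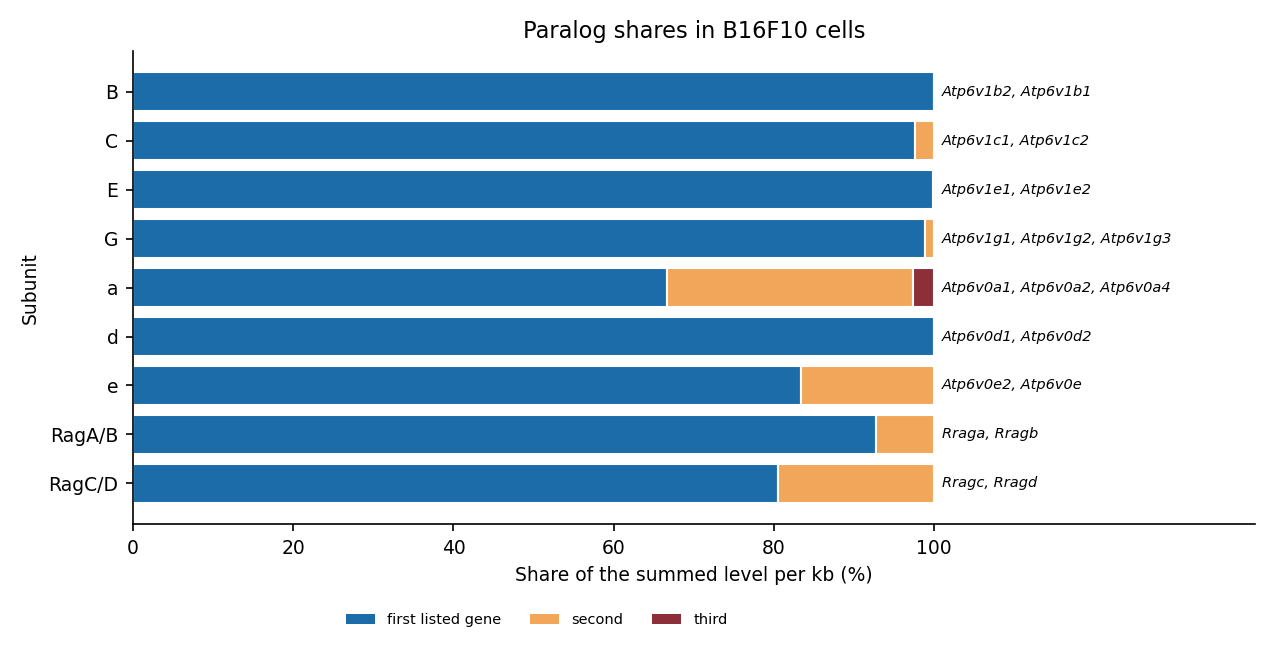
Share of each paralog in the summed level per kb of its subunit, in percent, for 7 V-ATPase subunits and the 2 Rag GTPase pairs. Genes are listed at the right in the order of the bar segments. The B, C, E, G and d subunits are filled almost wholly by 1 gene, whereas the a subunit is shared, with 66.7% from Atp6v0a1.

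The mTORC1 genes had a lower median level than the pump genes. All 21 were at or above 1 CPM, with a median of 15.7 CPM per kb and a range of 1.62 to 64.7. For the 25 pump genes the median was 29.4, and for the 20 of them at or above 1 CPM it was 52.6. The log2 ratio of the pump median to the mTORC1 median was 0.91 over all members and 1.75 over those at or above 1 CPM. With the coding length as the length of each gene it was 1.98. Genes are not replicates, and no test was made of this difference. Of the pump genes, 17 of 25 were above the median of 7.43 CPM per kb of protein-coding genes at or above 1 CPM, and of the mTORC1 genes 14 of 21.

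Within the mTORC1 part, the 12 genes of Ragulator, the Rag GTPases and folliculin with its partners had a median of 21.5 CPM per kb. The 9 genes of the mTORC1 core, of TSC and RHEB and of GATOR1 had a median of 5.72. The medians were 28.3 and 9.34 with the longest transcript and 81.2 and 12.6 with the coding length. Without a length they were 69.7 and 70.7 CPM, so the gap rests on the correction for length. The ranges, 1.86 to 64.7 and 1.62 to 18.7, overlapped, since Rragb, Lamtor4, Rragd and Lamtor1 of the first set lay below Rheb, the highest gene of the second.

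Ragulator, the scaffold that anchors the Rag GTPases, ranged from 9.33 CPM per kb for Lamtor4 to 50.6 for Lamtor5. Between them were Lamtor2 at 34.8, Lamtor3 at 19.2 and Lamtor1, which carries the lipid anchor of the complex, at 18.5. Per kb of coding sequence Lamtor3 was the highest and Lamtor4 again the lowest, and the range was 5.25-fold in place of 5.42-fold. Rragc, on chromosome 4 from 123917446 to 123936997, was the highest mTORC1 gene at 64.7 CPM per kb of exonic bases and 2.71-fold above Rraga at 23.9. Per kb of coding sequence it was 4.39-fold above Rraga, and Rheb (262) and Lamtor3 (215) exceeded it (181). Rragd was at 15.7 and Rragb at 1.86. Since a Rag dimer pairs RagA or RagB with RagC or RagD, both sides were represented, mainly by Rragc and Rraga.

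Folliculin, encoded by Flcn, acts with FNIP1 or FNIP2 on RagC and RagD and so bears on whether TFEB and related factors stay in the cytosol. Flcn was at 22.6 CPM per kb, Fnip1 at 51.4 and Fnip2 at 20.4. Fnip1, at 366 CPM, had more reads than any other mTORC1 gene, and its level per kb was 2.51-fold that of Fnip2.

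Among the core genes, the kinase gene Mtor was at 7.91 CPM per kb and Rptor, whose product raptor recognises substrates and binds the Rag dimer, at 5.71. Mlst8, a small subunit of the complex, was at 1.62 CPM per kb and 7.17 CPM. It was the lowest mTORC1 gene per kb of exonic bases, whereas Rragb was lower in CPM (4.20) and per kb of coding sequence (3.74 against 7.33). The gap between Mtor and Mlst8 was 4.89-fold per kb of exonic bases and 1.43-fold per kb of coding sequence. An opposite-strand gene, Bricd5, shares 22.5% of the exonic bases of Mlst8. Rheb, the activating GTPase, was at 18.7 CPM per kb, and the genes of the complex that restrains it, Tsc1 and Tsc2, were at 9.63 and 7.35. Rheb exceeded Tsc2 by 2.55-fold per kb of exonic bases and by 20.1-fold per kb of coding sequence, since 552 of its 7721 exonic bases are coding in the longest coding transcript. The GATOR1 genes, whose products inactivate RagA and RagB when amino acids are scarce, were at 5.72 (Nprl2), 5.10 (Depdc5) and 1.93 (Nprl3) CPM per kb. All 3 were under the 7.43 CPM per kb median of protein-coding genes at or above 1 CPM, while Nprl2 and Depdc5 were above the 2.13 median of those with reads. Without a length, Depdc5, at 60.1 CPM, was also above the 34.98 CPM median of genes at or above 1 CPM. An opposite-strand gene, Mpg, shares 17.7% of the exonic bases of Nprl3.

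Atp6v0c, Mlst8 and Tsc2 are neighbours on chromosome 17. Mlst8 begins 304 kb after Atp6v0c ends, and Tsc2 lies 117 kb beyond it. No other pair of members was within 1000 kb. The levels of the 3 genes were not alike, at 40.4, 1.62 and 7.35 CPM per kb.

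**Figure D4:**
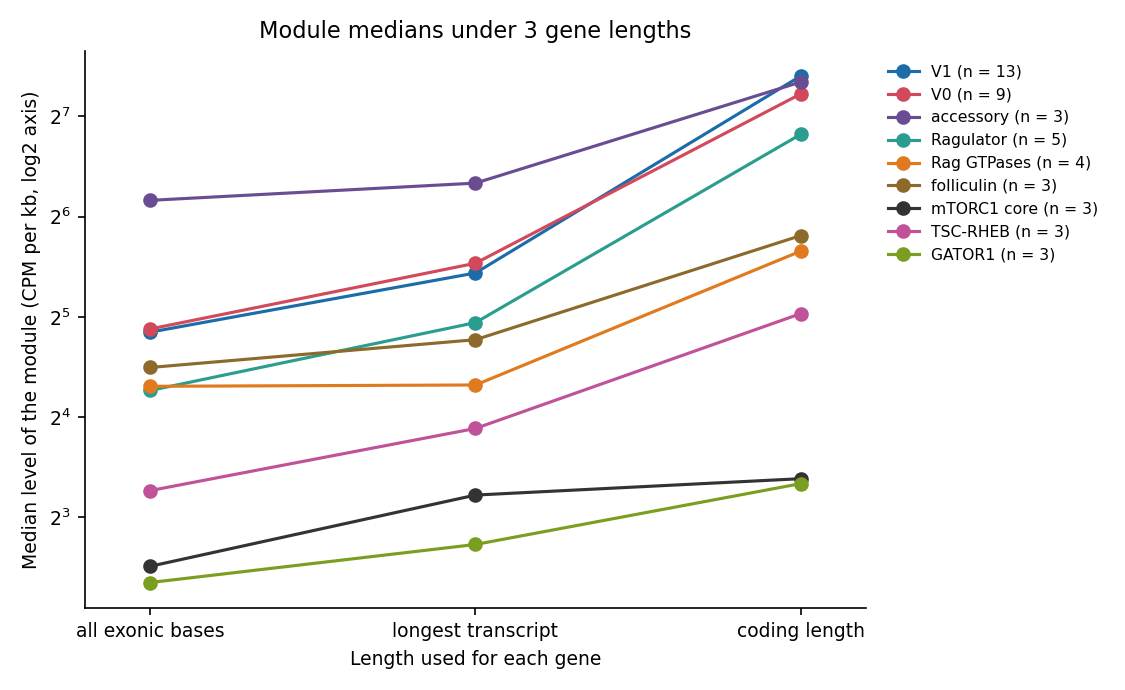
Median level of each complex in CPM per kb on a log2 axis when each gene's length is all exonic bases, the longest transcript or the coding length. Lines join the values of a complex, with the number of genes in the key. GATOR1 and the mTORC1 core are lowest and the 3 groups of pump genes highest under these 3 lengths, but not in CPM without a length, where folliculin (171) and TSC-RHEB (114) are above V0 (110), itself above V1, and the mTORC1 core (76.9) is above Ragulator (44.7).

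Other genes of the same pathway were taken from a list of 32 genes. Of these, 31 were at or above 1 CPM, and their median was 5.96 CPM per kb. The MiT factors were led by Mitf, the master regulator of pigment cells, at 46.5 CPM per kb, with Tfe3 at 5.73, Tfeb at 0.934 and Tfec at 0.0732 CPM, below the level of 3 reads. Among the 9 pump assembly genes, Dmxl2, which encodes a large subunit of the RAVE-like complex that joins V1 to V0, was highest at 41.8 CPM per kb and 555 CPM. The 6 amino acid sensor genes ran from 1.95 CPM per kb for Castor2 to 18.3 for Sesn2, whose product senses leucine, and the lysosomal arginine sensor gene Slc38a9 was at 3.09. The 5 GATOR2 genes, whose products oppose GATOR1, ran from 3.03 for Wdr24 to 38.2 for Sec13, and Sec13 and Seh1l also serve in other complexes. The 3 KICSTOR genes, which tether GATOR1 to the lysosome, had a median of 2.17 CPM per kb.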

How the data were processed

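RNA-seq of 6 B16F10 libraries (3 OLO, 3 OZO) was used. According to the methods and the submitters' processing notes, the authors aligned reads to mm10 with HISAT2 (2.1.0), counted them with featureCounts (2.1.1) and ran limma-voom (3.58.1). The library kit keeps strand. The strand setting in counting was not given in the sources used here. The authors deposited 1 table of their own comparison, with fold changes, moderated statistics, p-values and log odds (5 columns, not used here), and the average log2 CPM over all 6 libraries, which was used. The plan held tests for values per library, and its branch for a table without them was followed.

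CPM was obtained as 2 to the power of this average. Library size came from the value shared by genes without reads and the 0.5 reads that voom adds. Simulated counts of 27179 genes gave back 100% of the library size, which was fixed in advance because the same formula built the simulated average. The levels of 200 genes raised alike in all 6 simulated libraries came back with a median error of 0.093 on the log2 scale. Averaging over treatments that differ was not tested by this. Lengths came from GENCODE M21 on GRCm38, matched by Ensembl identifier for 46 of 46 members and 23882 genes. Promoter windows came from RefSeq, matched by Entrez identifier. The first transcribed bases of 28 of 41 member windows were found in a GENCODE transcript of the gene, and 0 windows read on the other strand.

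The members and lists were chosen with earlier results of these data known. All members are named with their values, and no test was made, since genes are not replicates. The binomial intervals of the motif shares do treat genes as independent draws. Alternatives were other lengths, no length, a limit of 1 CPM, subtraction of the 0.5 reads, another motif and the leaving out of overlapped members. Python 3.11.15, numpy 2.4.6, pandas 2.3.3, scipy 1.17.1 and matplotlib 3.10.9 were used.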

Additional observations from a re-analysis of the deposited data

Results flagged for a closer look

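Atp6v0c-ps2, a pseudogene of the proteolipid gene Atp6v0c that is not a member, was at 5.75 CPM, or 4.20% of the 137 CPM of Atp6v0c, above the 0.153 CPM that 3 reads would give. It is listed because it is a signal outside the reported comparison. Whether its reads came from Atp6v0c was not tested, and how reads that match both were counted is not given in the sources used here. The pseudogene Lamtor3-ps was at 0.0306 CPM, below the level of 3 reads.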

How the results depend on the processing

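No paired analysis was possible because only the mean over all 6 libraries was used. For the same reason the planned comparison of OZO with OLO, another test, a replicate block, another pseudocount, a filter on counts and leaving out each library were not run. The median of the pump genes exceeded that of the mTORC1 genes under every alternative run, but the size of the gap moved with the length. From 29.4 and 15.7 CPM per kb (log2 ratio 0.91), the medians became 46.4 and 16.1 (1.53) with the longest transcript and 162 and 41.2 (1.98) with the coding length. They were 110 and 70.7 CPM (0.64) without a length. At 1 CPM or more the pump median was 52.6 (1.75), since this limit removed 5 pump genes and no mTORC1 gene. Subtracting the 0.5 reads left all 3 values the same to 2 decimals of the ratio, at 29.4, 15.7 and 0.91. Leaving out the 5 members that share 10% or more of their exonic bases with another gene, chosen after seeing the data, gave an mTORC1 median of 17.2 (0.77). The leading paralog was the same in 9 of 9 families under each length. With TCACGTGA in place of CACGTG, the share of members with the motif was 7.89% in place of 26.3%, as the longer word contains the shorter. Depth limits Atp6v1g3, Atp6v0d2 and Atp6ap1l, which were below the level of 3 reads, and Atp6v1e2, which is below it once the 0.5 reads are subtracted.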
